A study of Polistes dominula with 96 samples.

Results

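Brain gene expression was compared among nests of the paper wasp *Polistes dominula* in 33 individuals that had lived without their queen for 12 days. All individuals sampled at day 12 after queen removal were taken from the 9 nests that gave 3 or more of them, nests 3, 4, 14, 33, 42, 45, 48, 65 and 67, and the single wasp of nest 5 was left out. They make up 33 of the 96 libraries of the series, and each library was 1 brain. Nests 3, 4, 14 and 48 gave 3 wasps each, nests 33, 45, 65 and 67 gave 4, and nest 42 gave 5. Every one of these nests lost its queen, so the nests do not differ by treatment or by days since queen removal. They differ by nest and by the age of the sampled wasps. The date on which each nest was sampled is not in the labels. Mean age ran from 11 days in nest 45 (3 to 16) to 24 days in nest 4, and age entered every test as a covariate. The nests were collected near Florence and brought into the laboratory before workers eclosed, and their subordinate foundresses were removed. The removed queen is therefore not certain to be the mother of every wasp of her nest. The wasps had been selected for sequencing to cover phenotypes from worker-like to queen-like, so nestmates are not a random draw from a nest.

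Wasps are haplodiploid. Females develop from fertilized eggs and carry 2 sets of chromosomes, whereas males are haploid, so all daughters of one father receive his whole genome and full sisters are more alike in sequence than sisters in a diploid species. Nestmates also share a comb, its food and microbes, its odor, and the order of dominance that follows the loss of a queen, in which a few females begin to lay eggs. Shared genotype, shared rearing, shared sampling date and shared handling of a nest cannot be told apart in these samples.

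The other libraries of the series came from 26 queens, 12 workers of control nests, 24 wasps sampled 3 days after queen removal and the wasp of nest 5. Of these, the 7 queens removed from nests 3, 14, 42, 45, 48, 65 and 67 and 19 day-3 wasps of 5 other nests were used for comparison. The 33 libraries held 10480464 to 18124755 counts (median 13550078). Levels are given as CPM, counts per 1000000 scaled over all 96 libraries, and a level of 3 counts corresponded to 0.162 to 0.286 CPM. The 9 glial markers, which a brain should hold, summed to between 2690 and 8320 CPM in every wasp. Markers of tissue next to the brain varied far more. The 20 muscle markers summed to 4890 to 61400 CPM and the 21 photoreceptor markers to 661 to 12600 CPM, and nest 45 alone covered the whole range of the muscle markers.

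Nestmates shared part of their brain expression. Of 10750 genes tested for any difference among the 9 nests, 1171 passed (10.9% of those tested; edgeR quasi-likelihood F test with age as covariate, Benjamini-Hochberg adjusted p under 0.05), and 3234 had an unadjusted p under 0.05. The nest share of variance, the part of a gene's variance after removal of age that lay between nests, had a median of 0.134 over all genes and 0.476 over those called. It exceeded 0.5 in 491 genes and was 0 in 2603. For most genes, then, wasps of one nest were nearly as different from each other as from wasps of other nests. In 539 of the genes called, the highest nest mean was more than 2-fold above the lowest.

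Nest 14 stood apart most often. When each nest was compared with the mean of the other 8, 1500 genes differed in nest 14 (14% of those tested), of which 896 were higher (8.33%) and 604 lower (5.62%). Far fewer differed in nest 42 (158, or 1.47%), nest 4 (123, or 1.14%), nest 3 (86, or 0.8%), nest 33 (74, or 0.688%) and nest 67 (47, or 0.437%). In nests 65, 45 and 48 the counts were 17 (0.158%), 14 (0.13%) and 1 (0.0093%). Much of the count of nest 14 rested on 1 of its 3 wasps: without wasp 1 it was 145 (88 higher and 57 lower), against 1073 without wasp 2 and 1483 without wasp 3. Without nest 14 altogether, 474 genes were called among the other 8 nests (4.41% of those tested), of which 459 were among the 1171.

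Several chaperones, which fold other proteins and assemble receptor complexes, were higher in nest 14 than in every other wasp. Hsp90, the chaperone of kinases and steroid receptors, stood at 181, 197 and 253 CPM there and at 24.7 to 86.9 CPM in the wasps of the other nests. No wasp of another nest reached the lowest wasp of nest 14, and the queen removed from nest 14 was at 55.9 CPM, inside the range of the other nests. The log2 difference was 1.76 (SE 0.151, edgeR adjusted p = 3.43e-08), and it lay between 1.63 and 1.82 when any wasp of nest 14 was left out.

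The partners of Hsp90 showed the same separation. Stip1, the adaptor that passes clients from Hsp70 to Hsp90, was at 317, 251 and 273 CPM in nest 14 and at 132 to 195 CPM elsewhere (log2 difference 0.767, SE 0.0735, edgeR adjusted p = 1.52e-07). Fkbp59, an immunophilin of the Hsp90 complex, was at 96.1, 77.7 and 90.8 CPM against 32.7 to 59.8 CPM (log2 difference 1.13, SE 0.0855, edgeR adjusted p = 4.13e-09). LOC107073247, a heat shock protein 70 A2-like gene, was at 908, 966 and 993 CPM against 277 to 658 CPM (log2 difference 1.06, SE 0.101, edgeR adjusted p = 1.52e-07). In each of these genes all 3 wasps of nest 14 lay above every other wasp. Among all 10750 genes tested, 61 showed this order, so it was not particular to chaperones. The queens show no such pattern, since the queen of nest 14 had 34.2 CPM of Fkbp59, 140 CPM of Stip1 and 524 CPM of LOC107073247. For Hsp90, Fkbp59 and Stip1 the call between nests was lost when nest 14 was left out (adjusted p = 0.692, 0.225 and 0.514, edgeR).

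Of the 13 heat shock and chaperone genes tested, 6 were called between nests (46.2%, against 10.9% of all genes). Without nest 14 the list had 1 call (7.69%, against 4.41% of all genes). In the contrast of nest 14, 9 rose and 1 fell, beside 8.33% and 5.62% of all genes. The median log2 difference was 0.669, beside 0.0262 for all genes. With wasp 1 left out, 4 rose and the median was 0.423. Per wasp, the median deviation of the 13 genes from their mean was log2 0.741, 0.0898 and 0.452 in nest 14. Wasp 2 thus lay below wasp 4 of nest 65 (0.285), wasp 3 of nest 3 and wasp 1 of nest 33 (both 0.135). The small heat shock gene LOC107067458, related to lethal(2)essential for life, was at 38.9, 26.5 and 19.7 CPM in nest 14 and at 5.08 to 17.6 CPM elsewhere, with the lowest values in nest 4 (5.08 to 9.3 CPM). It was the 1 gene of the list that kept its call without nest 14 (edgeR adjusted p = 0.0164). LOC107065477, a heat shock 70 kDa protein cognate 4-like gene, was at 617, 692 and 443 CPM in nest 14 (log2 difference 1.25, SE 0.253, edgeR adjusted p = 0.00221), and wasp 1 of nest 3, at 509 CPM, lay within that range. The gene that fell was LOC107067430, a small heat shock protein hspG3-like gene, at 6.07 to 10 CPM against 8.94 to 25.9 CPM (log2 difference -0.942, SE 0.194, edgeR adjusted p = 0.0025). Hsc70-4, the abundant constitutive form, was at 6670 to 9060 CPM in nest 14 and 5360 to 8260 CPM in the other nests, which overlap in part, and did not pass the test (log2 difference 0.303, SE 0.114, edgeR adjusted p = 0.0748).

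Genes for the protein subunits of the cytosolic ribosome also stood high in nest 14, by smaller amounts. Of 71 tested, 46 were called between nests (64.8%, against 10.9% of all genes). In the contrast of nest 14, 59 were higher, beside 8.33% of all genes, with none lower by edgeR or at an unadjusted p under 0.05. Their median log2 difference was 0.357. Scaling with DESeq2 size factors gave a count of 59 and a median of 0.352. The count depended on wasp 1 more than the level did: without it 4 of the 71 were called higher, with a median of 0.283. Without nest 14 the list had 4 calls between nests (5.63%, near the 4.41% of all genes). RpL21, a protein of the large subunit, was at 352, 361 and 336 CPM in nest 14, and the other nests lay between 149 and 312 CPM. Nest 45 was at the other end, with RpL21 at 188, 192, 149 and 192 CPM, below every wasp of the other 8 nests (log2 difference -0.415, SE 0.0874, edgeR adjusted p = 0.0479). Of the 10750 genes tested, 4 showed this order for nest 45. Per wasp, the median deviation of the 71 genes from their mean over the 33 wasps was highest in the 3 wasps of nest 14 and wasp 4 of nest 65 (log2 0.436, 0.34, 0.227 and 0.332). It was lowest in wasp 3 of nest 45 (log2 -0.43). Of the 71 mitochondrial ribosomal protein genes, 6 were called between nests (8.45%, against 10.9% of all genes). In the contrast of nest 14, 23 of them were higher (median log2 difference 0.193), beside 8.33% of all genes. Of these genes 2 were higher without wasp 1, and 3 were higher with muscle and photoreceptor markers as covariates.

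Muscle markers, and in wasp 1 also fat body markers, stood higher in nest 14. Its 3 wasps had 21900 to 35300 summed CPM of the muscle markers, within the range of the other nests. Of the 20 markers 5 were called higher there, beside 8.33% of all genes, with a median log2 difference of 0.94. Without wasp 1, 0 were called (median 1.06), and without wasp 2, 1 was (median 0.64). The fat body markers had a median log2 difference of 0.673 in nest 14, with none called. Without wasp 1 this median was 0.344. Per wasp, the median deviation of the fat body markers was log2 1.03, -0.408 and 0.131, so wasp 2 lay below the mean of all wasps. The median log2 differences of the photoreceptor, glial and gland markers in nest 14 were -0.118, 0.0225 and 0.132. The 13 gland markers summed to 30200 CPM in wasp 1, nearly all from the glandular alpha-glucosidase Hbg3 at 29500 CPM, against 649 to 2950 CPM over all other wasps. With the levels of muscle and photoreceptor markers as further covariates, 56 of the 71 cytosolic ribosomal protein genes (median 0.409) and 9 of the 13 chaperones (median 0.501) were called higher in nest 14. The part of the gland markers in these results was not tested.

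A pair of chromatin and trafficking genes was low in nest 14. Utx, a demethylase that removes a repressive mark from histone H3, was at 47.5, 68.2 and 64.1 CPM there and at 93 to 267 CPM elsewhere (log2 difference -1.32, SE 0.191, edgeR adjusted p = 9.08e-05). It was highest on average in nest 45, at 252, 206, 267 and 211 CPM (log2 difference 0.949, SE 0.17, edgeR adjusted p = 0.0171), whose removed queen was also the highest of the 7 at 535 CPM. The queen of nest 14, at 201 CPM, was not low. Over the 7 nests the correlation of queen and nest for Utx did not pass a test (Pearson's r 0.257, p = 0.547, exact permutation test). Without the 2 nests farthest from the median r was -0.847. The call of Utx between nests was lost without nest 14 (edgeR adjusted p = 0.0533). Rich, known in the fly as a partner of the small GTPase Rab6, was at 49.5, 52.6 and 45.5 CPM in nest 14 and at 60.3 to 154 CPM elsewhere (log2 difference -0.716, SE 0.114, edgeR adjusted p = 0.000226).

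**Figure D1:**
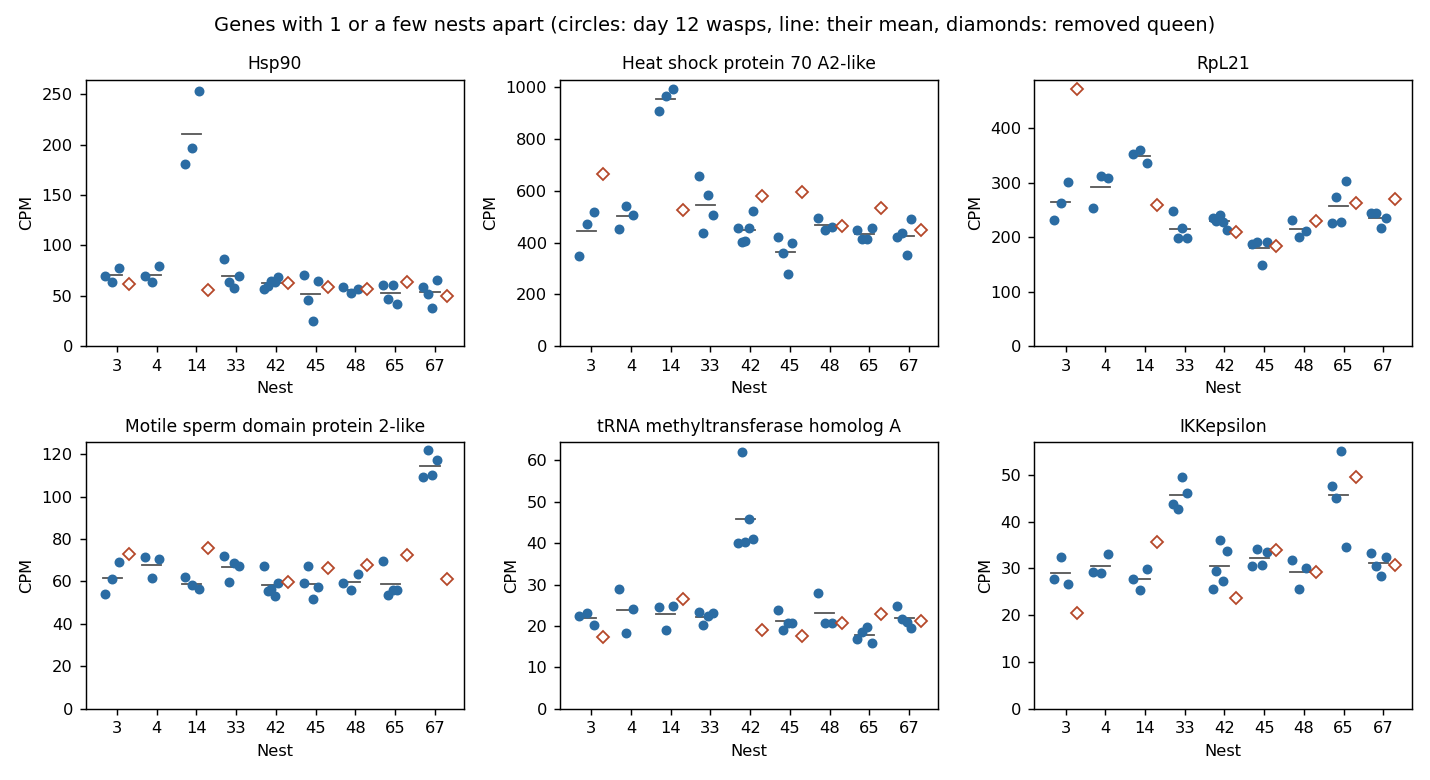
Levels in CPM (vertical axis) of Hsp90, LOC107073247, RpL21, LOC107071847, LOC107069410 and IKKepsilon in the wasps of the 9 nests (horizontal axis), with circles for wasps, a line for the nest mean and diamonds for the removed queen where there was one. The 3 wasps of nest 14 hold the highest Hsp90 levels (181 to 253 CPM), the 4 of nest 67 the highest of LOC107071847 (109 to 122 CPM) and the 5 of nest 42 the highest of LOC107069410 (40 to 62 CPM), while the queens of these nests lie with the other nests.

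Other nests were set apart by fewer genes. All wasps of the nest lay above every other wasp in 3 of the 10750 genes tested for nest 67, 3 for nest 42 and 25 for nest 4. LOC107071847, a motile sperm domain-containing protein 2-like gene, was at 109, 122, 110 and 117 CPM in nest 67 and at 51.8 to 71.8 CPM in every other wasp. All 4 wasps lay above the other 29, with a log2 difference of 0.912 (SE 0.0646, edgeR adjusted p = 8.48e-10). The queen removed from nest 67 had 61.3 CPM. LOC107069715, which encodes a protein of the nuclear pore like Nup93, was also high in nest 67, at 41.8, 40.8, 39.5 and 44.2 CPM against 24.2 to 36.3 CPM (log2 difference 0.522, SE 0.0777, edgeR adjusted p = 0.000638). The queen was again with the other nests, at 29.9 CPM.

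Nest 42 was set apart by LOC107069410, a tRNA (uracil-5-)-methyltransferase homolog, one of the enzymes that modify transfer RNA. Its 5 wasps had 40, 62, 40.3, 45.8 and 41 CPM, and all other wasps had 16 to 28.9 CPM (log2 difference 1.07, SE 0.0926, edgeR adjusted p = 8.11e-08). The groups did not overlap, and the queen of nest 42 had 19.1 CPM. This gene was also called among the 5 nests sampled at day 3 (edgeR adjusted p = 0.00201). Sptz, named for the Toll ligand spätzle of the fly, was at 738, 873, 837, 501 and 579 CPM in nest 42 (log2 difference 1.23, SE 0.178, edgeR adjusted p = 3e-04), which overlapped with nests 4, 45 and 65. It was low and even in nest 14 (181, 139 and 177 CPM) and nest 48 (211, 198 and 196 CPM), although the lowest wasp, at 136 CPM, was of another nest.

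In nest 4, mTerf5, a mitochondrial transcription termination factor, was at 18.4, 19 and 20.4 CPM against 8.33 to 16.9 CPM (log2 difference 0.895, SE 0.128, edgeR adjusted p = 0.000646). The kinase IKKepsilon, which acts in innate immune signalling and is named TBK1 in the reference, was high in nests 33 and 65. Nest 33 had 43.8, 42.8, 49.6 and 46.2 CPM (log2 difference 0.535, SE 0.0876, edgeR adjusted p = 0.00307) and nest 65 had 47.7, 45, 55.2 and 34.5 CPM. The other 7 nests lay at or below 36 CPM, so that wasp 4 of nest 65 fell among them. The queen of nest 65 had the highest level of the 7 at 49.6 CPM. Over the 7 nests, however, the correlation of queen and nest did not pass a test (Pearson's r 0.718, p = 0.08; Spearman's rho 0.393, p = 0.396; exact permutation tests), and r was -0.326 without the 2 nests farthest from the median.

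LOC107067924, a DEAD-box RNA helicase 20-like gene, was graded among nests. It was at 63.6, 58.6 and 40.8 CPM in nest 3, at 28.6, 45.5 and 29.9 CPM in nest 4, and at 11.2 to 14.4 CPM in nest 42 (edgeR adjusted p = 4.47e-06 over the 9 nests). It was called among the nests of day 3 as well (edgeR adjusted p = 0.00314). The endochitinase SP2-like gene LOC107073767, of a family that cuts chitin, was low in nest 4 (3.16 to 4.37 CPM) and high in nest 42 (32.2 to 47.2 CPM). The lowest wasp, at 1.18 CPM, was of another nest, and the gene had an edgeR adjusted p of 0.000429. Its counts were identical to those of LOC107073799 in every library, so reads of these copies could have been split between them and the level of either is uncertain. LOC107064805, a serine proteinase stubble-like gene, was at 10.1, 11.3 and 12.9 CPM in nest 4 and at 0.426 to 2.62 CPM in nest 67 (edgeR adjusted p = 0.000325). It spread from 1.99 to 25.3 CPM within nest 33, so it was even in some nests and not in others.

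A group of genes was shared by nests 3, 4 and 14. In 11 of the 10750 genes tested, all of them called, the 9 wasps of these 3 nests lay above all 24 others. No gene showed the opposite order. The group came from a search of these same values over combinations of nests and was not tested. It held the most such genes of any combination of several nests. The clearest was LOC107073746, a putative fatty acyl-CoA reductase, an enzyme of the family that makes the fatty alcohols of waxes and cuticular lipids. It was at 34, 9.53 and 9.69 CPM in nest 3, at 10.9, 18 and 12.2 CPM in nest 4, and at 21.8, 16.2 and 13.8 CPM in nest 14. Every wasp of nests 33, 42, 48, 65 and 67 had 0 counts, as did 3 of the 4 wasps of nest 45, whose wasp 2 had 7.87 CPM. The gene was therefore on or off, and nestmates shared its state in 8 of 9 nests (edgeR adjusted p = 0.00685 over the nests). The queens of nests 3 and 14 had 21.6 and 19.7 CPM and those of nests 42, 45, 65 and 67 had 0. The queen of nest 48 was on, at 8.14 CPM, although her 3 wasps were off.

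The other 10 genes of this group were mostly without an annotated product. LOC107072968 was at 4.29 to 14.5 CPM in nests 3, 4 and 14 and at 0 to 2.46 CPM elsewhere, and LOC107068763 was at 2.4 to 16.6 CPM against 0 to 0.444 CPM (edgeR adjusted p = 5.26e-07 over the nests for both). LOC107073565 was at 5.15 to 22.1 CPM against 0 to 1.65 CPM. These differences were close to presence and absence. The genes of known product differed by less: LOC107065660, a kainate-type glutamate receptor, was at 5.99 to 10.4 CPM against 1.47 to 4.44 CPM, and IFT43, a protein of transport in cilia, was at 14.2 to 20 CPM against 4.79 to 12.2 CPM. LOC107072968 and LOC107073683 of this group stood in a row with LOC107073684 and LOC107064457 in the reference gene order, and all 4 were called between nests.

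**Figure D2:**
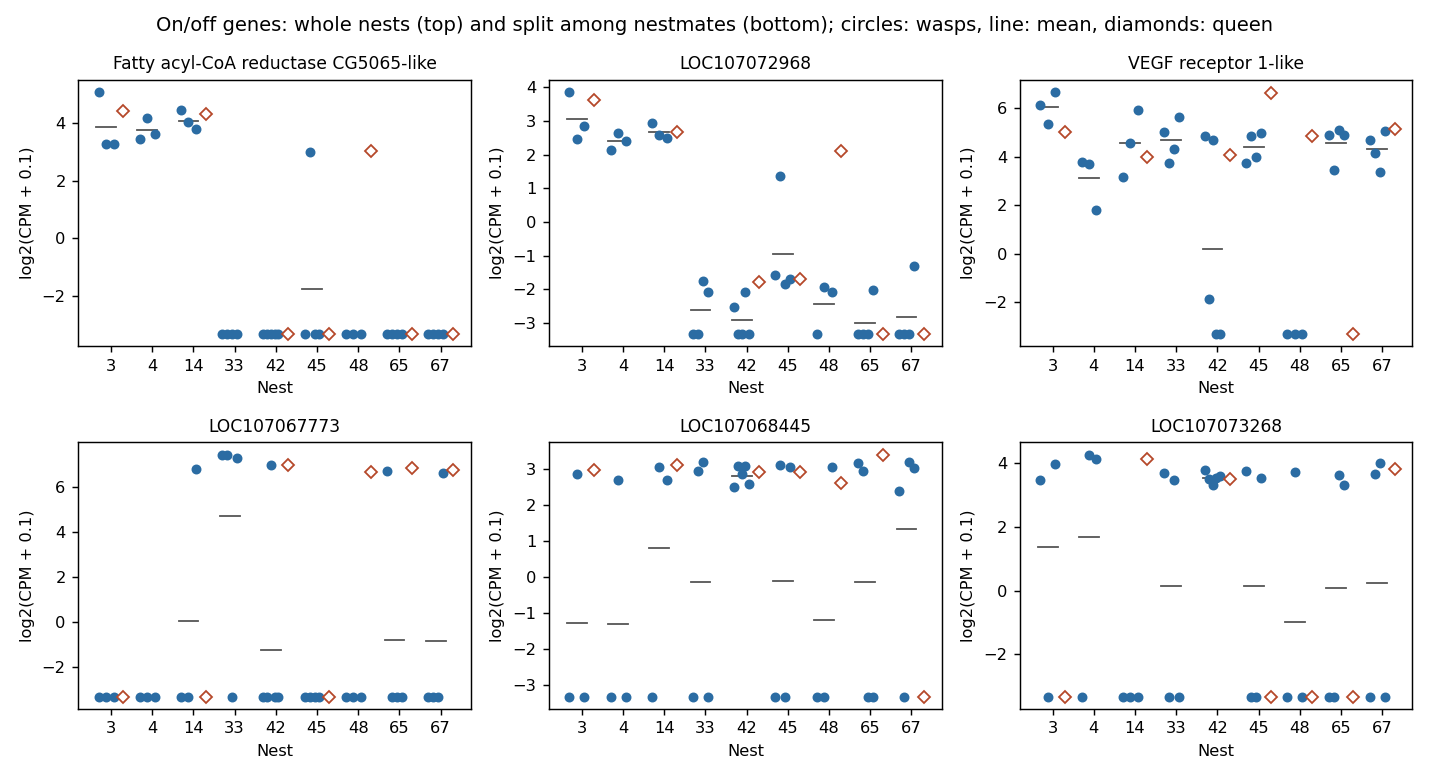
Levels as log2 of CPM with a small pseudocount (vertical axis) of 6 genes in the wasps of the 9 nests (horizontal axis), with circles for wasps and diamonds for removed queens. The upper genes LOC107073746, LOC107072968 and LOC107072742 were on or off by nest except in 1 split nest each, whereas the lower genes LOC107067773, LOC107068445 and LOC107073268 were on in some wasps and off in others of the same nest.

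Across all 96 libraries LOC107073746 kept its on or off character: 36 libraries had 30 counts or more, 60 had 3 or fewer, and none lay between. In the 16 other nests with at least 2 libraries by their labels, 8 were on in every library, 7 off in every library and 1 split. The split nest was nest 28, where the queen and the control worker were on and a day-3 wasp was off. The study lists that wasp under nest 38, whose libraries were all off. Nest numbers were uneven in this respect. Of the libraries of other nests, 14 of 15 from nests numbered up to 31 were on, and 9 of 41 from nests with higher numbers. The 1 off library from nests numbered up to 31 was the day-3 wasp labelled nest 28. The division was chosen after the values were seen and is given with no test. What the nest numbers stand for is not given in the sources used here. LOC107073746 and LOC107072968 were in the same state in all 92 libraries where both could be classed, with 36 on, 56 off and 0 discordant.

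**Figure D3:**
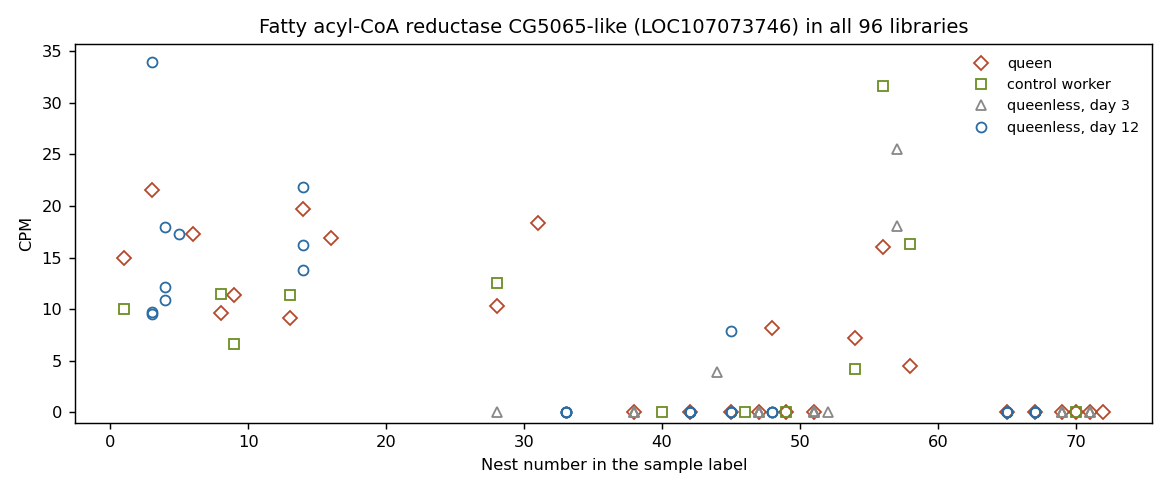
Level of LOC107073746 in CPM (vertical axis) against the nest number (horizontal axis) in all 96 libraries, with points marked by condition. Nests 3, 4 and 14 lie among other low-numbered nests in which the gene was on, and most libraries of higher-numbered nests were at 0.

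Further genes were on in all wasps of some nests and off in all wasps of others. By the rule of at most 3 counts in every wasp of a nest and at least 30 in every wasp of another, 12 genes passed. Of these 8 were called, beside 10.9% of all genes, but the rule itself picks genes by their nest levels. It leaves the remaining nests free: LOC107073268, described below, met it although it was split in 7 nests. LOC107073706, derived from a piggyBac transposon, was on in nests 3 (5.57 to 9.54 CPM), 4 (4.77 to 7.31 CPM) and 65 (6.14 to 15 CPM). It had 0 counts in all 4 wasps of nest 67 and in their queen, and it was on in some wasps and off in others of nests 14, 42 and 48 (edgeR adjusted p = 0.0109 over the nests). LOC107072742, a vascular endothelial growth factor receptor 1-like gene, had 0 counts in all 3 wasps of nest 48 but 28.5 CPM in their queen. Nest 65 was the reverse, with 10.7 to 33.9 CPM in its wasps and 0 in its queen. Nest 42 was split for this gene, at 28.6, 0.171, 25.3, 0 and 0 CPM (edgeR adjusted p = 0.0198, a call lost without wasp 2 of nest 48). LOC107063754, an uncharacterized protein, was at 0.15 to 0.159 CPM in nest 4 and 0.138 to 0.565 CPM in nest 42, against 5.75 to 36.1 CPM in nest 45 and 9.35 to 16.7 CPM in nest 65 (edgeR adjusted p = 0.00264). The queen of nest 42 was on for it, at 16.4 CPM.

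Other genes were just as discrete but divided nestmates. Of all genes tested, 116 had wasps at 3 counts or fewer and nestmates at 30 or more with none between in at least 1 nest, and 35 did so in at least 2 nests. LOC107067773 was on in 7 of 33 wasps, at 95.5 to 171 CPM, and at 0 in the other 26. Nest 33 had 3 of these wasps (171, 167 and 153 CPM, with 0 in wasp 3), and nests 14, 42, 65 and 67 had 1 each. It was not called between nests (edgeR adjusted p = 0.248), and it was on in 36 of the 96 libraries. LOC107068445 was on in 19 of 33 wasps (5.16 to 9.07 CPM) and LOC107073268 in 18 of 33 (9.67 to 19 CPM). Both were on in all 5 wasps of nest 42, and neither was called (edgeR adjusted p = 0.977 and 0.599). LOC107068445 was split in each of the other 8 nests, and LOC107073268 in 7, since all 3 wasps of nest 14 were off. LOC107068445 and LOC107068446 were complementary: of 93 libraries in which both could be classed, 14 had both on, 55 the first only, 24 the second only, and 0 neither.

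Chemosensory receptors and transposon-derived genes held further nest differences. Of 23 genes in the list of odorant and related receptors, 5 were called (21.7%, against 10.9% of all genes). The list had 4 calls without nest 14 (17.4%, against 4.41% of all genes). The receptor 49b-like gene LOC107070319 was at 12.4 to 20.2 CPM in nest 42, whose queen had 19.9 CPM, and at 37.7 to 65 CPM in nest 45 and 38.6 to 54.8 CPM in nest 67 (edgeR adjusted p = 0.00714 over the nests). The 13a-like receptor LOC107069958 was at 2.04, 5.67 and 6.19 CPM in nest 3 and at 0 to 2.07 CPM in the other nests (edgeR adjusted p = 0.0216, lost without wasp 2 or wasp 3 of nest 3). LOC107069924, another 13a-like receptor, was lowest in nest 4 (1.91 to 3.23 CPM). The remaining called members were not odorant receptors: the ionotropic receptor gene Ir93a, and Gr10, whose product is annotated as orexin receptor type 1-like. Of 9 transposon-derived genes 3 were called (33.3%, against 10.9%). Only LOC107073706 of these kept its call without any single wasp. LOC107073753 lost it without any 1 of 11 wasps, and LOC107068755, at 0 to 1.95 CPM, without any 1 of 28 wasps and with DESeq2. The shares of cuticular hydrocarbon synthesis (5 of 31, 16.1%, among them LOC107073746) and detoxification (7 of 46, 15.2%) were nearer to the 10.9% of all genes. Without nest 14 they were 9.68% and 4.35%, against 4.41% of all genes.

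The shares of calls in lists of neural, hormone and immune genes were not tested against the 10.9% called of all genes. None of 13 neuropeptide and neuropeptide receptor genes was called by edgeR between nests, where 2 had an unadjusted p under 0.05 and DESeq2 called 2. None of 7 clock genes was called by edgeR, where 3 had an unadjusted p under 0.05 and DESeq2 called 2. Among ion channels and synaptic receptors, 7 of 49 genes were called (14.3%), and 4 without nest 14 (8.16%, against 4.41% of all genes). Of 18 genes for biogenic amines 2 were called (11.1%), neither without nest 14. Tbh, the enzyme that makes octopamine, was at 78.5, 62.1 and 44.6 CPM in nest 14 and at 15.7 to 57.5 CPM elsewhere (log2 difference 1.18, SE 0.23, edgeR adjusted p = 0.00159 in the contrast of nest 14), and its call between nests was lost without wasp 1 or wasp 2 of nest 14. Oamb, an octopamine receptor, was the other (edgeR adjusted p = 0.0422), a call lost without any 1 of 15 wasps. Of 25 hormone signalling genes, 1 was called by edgeR, where 11 had an unadjusted p under 0.05 and DESeq2 called 10. This was the nuclear receptor gene Hr38 (edgeR adjusted p = 0.0348), at 25.6, 32.6 and 27.1 CPM in nest 3 and 78, 121, 96.3 and 86.4 CPM in nest 33, a call lost without any 1 of 5 wasps of nests 3, 33 and 48. Of 23 immune genes, 1 was called by edgeR, where 10 had an unadjusted p under 0.05 and DESeq2 called 8. This was B-gluc1, a beta-glucan recognition protein (edgeR adjusted p = 0.0197), lowest in nest 4 at 87.4, 48.8 and 36.6 CPM, a call lost without wasp 2 or wasp 3 of nest 4. For oxidative phosphorylation 3 of 64 genes were called (4.69%), for histones 1 of 16 and for zinc finger proteins 7 of 80 (8.75%).

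The genes tied to reproduction varied within nests. Kr-h1, a zinc finger gene that answers to juvenile hormone, stood over 30 CPM in 10 of the 33 wasps (30.5 to 141 CPM) and between 0.164 and 7.69 CPM in the others. Nests 3, 4, 14, 33, 48, 65 and 67 each had exactly 1 such wasp, at 43.1, 84.5, 45.2, 76, 141, 76.6 and 61.4 CPM. Nest 42 had 3, at 106, 43.1 and 30.5 CPM, and nest 45, the youngest sampled, had none. Kr-h1 was thus divided among nestmates in 8 of 9 nests and was not called between nests (edgeR adjusted p = 0.65). The 7 removed queens lay at 37.2 to 140 CPM. As the sequenced wasps had been chosen to range from worker-like to queen-like, these numbers per nest describe the chosen wasps.

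Vgn, which encodes the yolk protein precursor vitellogenin, varied in both ways. The wasp with the highest Kr-h1 was also the highest in Vgn in 8 of 9 nests, where an even draw would give 2.53. This number too describes wasps chosen to range from worker-like to queen-like. Nest 4 was low throughout (443, 316 and 861 CPM) and nest 42 high throughout (11500, 11300, 3560, 2840 and 10600 CPM). In nest 14 the values were 4540, 11600 and 1100 CPM, so that a single nest covered most of the range. The call of Vgn between nests (edgeR adjusted p = 0.0419) was lost without any 1 of 16 wasps. Against the ovarian index within nests, with age as covariate, 8 genes were called (0.0744% of those tested; 888 at an unadjusted p under 0.05), among them Vgn (log2 0.879 per SD of the index, edgeR adjusted p = 0.0324) and Kr-h1 (log2 2.45 per SD, edgeR adjusted p = 0.0324). LOC107065359 and LOC107065361, cytochrome P450 4C1-like genes, and LOC107072906, an elongase of very long chain fatty acids, rose with it too (edgeR adjusted p = 0.0216, 0.00304 and 0.00473). The remaining 3 were LOC107064222, LOC107073509 and LOC107069526.

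Several abundant genes spread widely among nestmates. They were picked for large spread within nests, and only from genes that did not pass the nest test before adjustment. Their lack of a call between nests therefore followed from the choice, and the adjusted p values below only describe it. LOC107068501, an ejaculatory bulb-specific protein 3-like gene of the chemosensory protein family, ran from 0.378 to 302 CPM (edgeR adjusted p = 0.976). Within nest 67 it was at 4.21, 24.7, 302 and 81.7 CPM, and within nest 42 at 3.35, 205, 50.3, 171 and 43.8 CPM, so single nests covered much of its range. LOC107065115, a circadian clock-controlled protein-like gene, ran from 70.6 to 5510 CPM (edgeR adjusted p = 0.874), with both values near these extremes in nest 67 (76.2 and 5510 CPM). LOC107073573, a farnesol dehydrogenase-like gene, ran from 42.2 to 1350 CPM (edgeR adjusted p = 0.431). Farnesol dehydrogenases act in juvenile hormone synthesis. Less abundant candidate genes, not picked in this way, also spread widely. Cyp4g15, of a P450 family that makes cuticular hydrocarbons, ran from 0 to 171 CPM (edgeR adjusted p = 0.418). The storage protein gene Hex70a ran from 0.216 to 232 CPM (edgeR adjusted p = 0.14).

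Genes of the eye, picked in the same way, formed another set of this kind. Arr2, the arrestin that shuts off rhodopsin, ran from 16.7 to 6460 CPM (edgeR adjusted p = 0.748). It was at 235, 2380, 17.6 and 3690 CPM in nest 33 and at 16.7, 1980, 36.7 and 3630 CPM in nest 45, whereas the 5 wasps of nest 42 lay between 1360 and 2520 CPM. Gbeta76C, the G protein subunit of phototransduction, ran from 0.928 to 114 CPM, tan, an enzyme of histamine recycling in photoreceptors, from 1.61 to 221 CPM, and Culd from 2.12 to 176 CPM. The photoreceptor markers as a whole summed to 711 to 6040 CPM in nest 33 and 661 to 5980 CPM in nest 45. Their part in the spread of these genes was not tested.

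**Figure D4:**
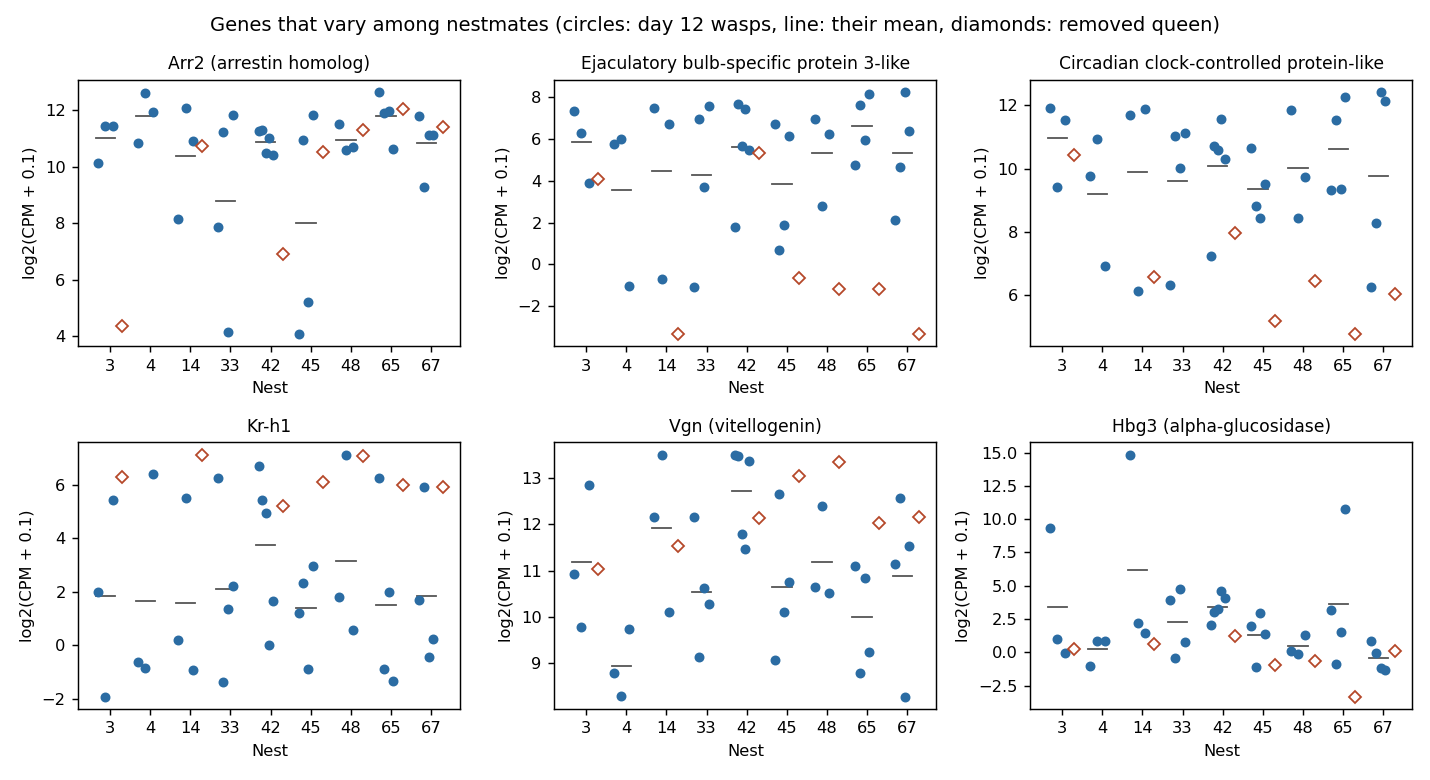
Levels as log2 of CPM with a small pseudocount (vertical axis) of Arr2, LOC107068501, LOC107065115, Kr-h1, Vgn and Hbg3 in the wasps of the 9 nests (horizontal axis), with circles for wasps and diamonds for removed queens. Nestmates cover most of the range of these genes, and 1 wasp of each of nests 3, 4, 14, 33, 48, 65 and 67 stands apart in Kr-h1.

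Some genes were called between nests although 1 or a few wasps, rather than whole nests, held the high levels. Hbg3 was called (edgeR adjusted p = 0.000816) although its nest share of variance was 0.0999. Its level was 29500 CPM in wasp 1 of nest 14, 1770 CPM in wasp 4 of nest 65, 636 CPM in wasp 1 of nest 3 and 0.307 to 26.9 CPM in all others. The same 3 wasps were high in LOC107069710, the odorant-binding protein 56a gene, at 445, 281 and 712 CPM, together with wasp 1 of nest 48 (265 CPM) and wasp 3 of nest 14 (173 CPM), while all others had 0.77 to 8.71 CPM. LOC107066896, a translation initiation factor IF-2-like gene, was at 741 CPM in wasp 3 of nest 42 and 152 CPM in wasp 1 of nest 65, with a nest share of 0 and an edgeR adjusted p of 0.00441. None of these 3 calls between nests was lost when any single wasp was left out, yet nestmates did not share the level. Other settings did lose them. The call of Hbg3 was lost with log2 library size as covariate (edgeR adjusted p = 0.0629) and that of LOC107066896 without nest 42 (edgeR adjusted p = 0.0587). LOC107069710 lost its call without nest 42 or nest 45, and with muscle and photoreceptor markers as covariates (edgeR adjusted p = 0.0761). In the contrast of nest 14, Hbg3 was higher by 9.62 on the log2 scale (edgeR adjusted p = 4.02e-05), and without wasp 1 the difference was -0.299 (edgeR adjusted p = 0.973).

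Age within nests was tested in the same fit. By edgeR 1 gene was called against age (0.0093% of those tested), 1502 had an unadjusted p under 0.05, and DESeq2's Wald test called 99. This gene, LOC107072784, a phospholipase C X domain-containing protein 1-like gene, fell by 0.0583 on the log2 scale per day (edgeR adjusted p = 0.0449), and its highest level, 885 CPM, was in wasp 3 of nest 45.

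Over the whole transcriptome nestmates were more alike than wasps of different nests. The mean correlation between libraries, after centering each gene and removing age, was 0.122 within nests and -0.0449 between nests. The difference of 0.167 had p = 1e-05, the smallest that 100000 two-sided permutations of the nest labels can give. For 20 of the 33 wasps the most similar other wasp was a nestmate, where an even draw would give 2.88. This number was 12 over the genes with a mean log2 CPM of 5 or more, 19 without removal of age and 16 with Spearman correlation. All 5 wasps of nest 42, all 4 of nest 33, and all 3 each of nests 4 and 48 were nearest to a nestmate. In contrast, none of the 4 wasps of nest 45 and none of the 4 of nest 65 were. The mean correlation within a nest was 0.267 in nest 4, 0.211 in nest 42, 0.193 in nest 14, 0.156 in nest 33 and 0.15 in nest 3. It was lower in nests 48, 67 and 65 (0.0927, 0.0764 and 0.0325) and -0.0361 in nest 45.

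**Figure D5:**
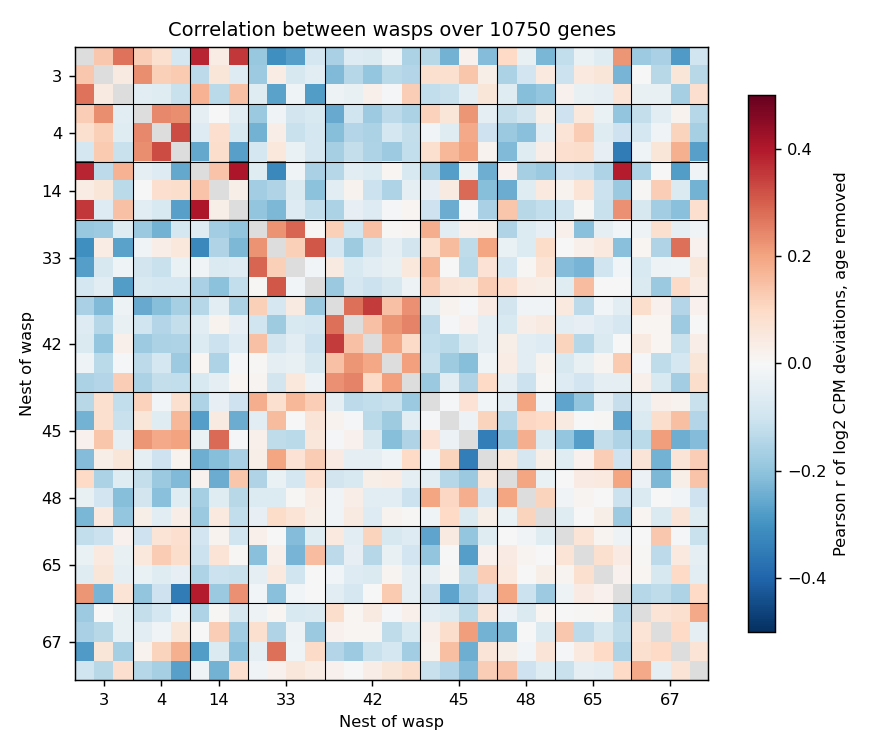
Correlation of gene expression, after centering each gene and removing age, between each pair of the 33 wasps, ordered by nest on both axes, with color for the correlation. Blocks along the diagonal mark nests, and those of nests 4 and 42 (mean 0.267 and 0.211) are the most alike whereas that of nest 45 (mean -0.0361) is not.

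Of 482 pairs across nests, the highest correlations joined wasp 1 of nest 14 with wasp 4 of nest 65 (0.394), wasp 1 of nest 3 with wasp 1 of nest 14 (0.38) and wasp 1 of nest 3 with wasp 3 of nest 14 (0.353). Wasp 1 of nest 14, wasp 4 of nest 65 and wasp 1 of nest 3 held the 3 highest levels of Hbg3, and the pair of wasp 1 of nest 3 and wasp 4 of nest 65 ranked 8 (0.222). Wasp 3 of nest 14 and the wasps of the pairs ranked 4 to 6 (0.282, 0.277 and 0.231) were not among them. Leaving wasp 1 of nest 14 out of the nest test lowered its calls to 585.

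The removed queens, which had no part in the nest test, resembled the wasps of their nests weakly. The deviation of a queen from the mean of the 7 queens and the deviation of her nest from the mean of the 7 nests had a mean correlation across 10750 genes of 0.15 for a queen's own nest and -0.0236 for other nests. The difference was 0.174 (exact permutation test over the 5040 pairings, two-sided, p = 0.00417, smallest possible 0.000198). Its value for a queen and her own nest was 0.279 for nest 45, 0.27 for nest 3, 0.154 for nest 42, 0.15 for nest 67, 0.123 for nest 65, 0.0745 for nest 48 and 0.00107 for nest 14. In 4 of 7 cases (nests 42, 45, 65 and 67) the queen's own nest was the best match, against 1 of 7 over the genes with a mean log2 CPM of 5 or more and 3 of 7 with Spearman correlation. Over the 5617 genes with a mean log2 CPM of 5 or more the difference was 0.11 (p = 0.315, exact permutation test), and with Spearman correlation it was 0.118 (p = 0.151, exact permutation test), so the difference did not pass the test in these alternatives.

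Gene by gene, the correlation between the 7 queens and their nests had a median of 0.0991 over all genes and 0.322 over the 474 genes called without nest 14. It exceeded 0.5 in 16.1% of all genes and in 34.6% of those 474. Over the 712 genes called only when nest 14 was present, the median was 0.0378. None of 120 named genes had an adjusted p under 0.05 for its correlation over the 7 nests (exact permutation tests), and 10 had an unadjusted p under 0.05. The smallest unadjusted p was 0.00139 (adjusted 0.167, exact permutation tests), for LOC107073565 of the group of nests 3, 4 and 14, with Pearson's r of 0.976, Spearman's rho of 0.893, and r of 0.742 without the 2 nests farthest from the median.

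Nest differences were also tested in 19 wasps of nests 38, 47, 51, 69 and 71 sampled 3 days after queen removal, none of which entered the day-12 test. Of 10583 genes, 56 were called (0.529%). Of these, 15 were among the day-12 calls, which is 26.8% of the day-3 calls, beside 10.9% of all genes tested at both days. It is 1.3% of the day-12 calls, beside 0.53%. Of the day-12 calls, 20.3% had an unadjusted day-3 p under 0.05, beside 10% of all genes tested at both days. LOC107069410 and LOC107067924 were among the genes called at both.

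Genes called between nests had called neighbors somewhat more often than other genes. Of the genes called without nest 14 that had a place in the reference gene order, 16.7% stood beside another such gene, against 7.88% of all placed genes tested. Over all 1171 calls the shares were 24% and 19.9%. These shares are descriptions, as neighboring genes are not independent and can share reads where they overlap.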

How the data were processed

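Each brain was sequenced as 1 library. The authors removed ribosomal RNA reads with SortMeRNA, trimmed with Trimmomatic, aligned with STAR 2.7 to annotated transcripts of *P. dominula* and counted with StringTie2. The sample records give Trimmomatic 0.36, whereas the study's reporting summary names a later version. What they deposited are raw counts, not normalized. After 194 entries that repeated another's gene ID were added to it, 11335 entries gave 11140 genes. An entry with no gene name (0.0216% to 0.0706% of a library's counts) was left out. Symbols came from the RefSeq gene table of assembly Pdom_raw_medaka, in which 10144 IDs had an entry and 4064 a symbol. Product names came from that table and the study's annotation.

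Genes were tested if their counts summed to more than 20 over the 33 wasps and over 1 or more of the study's 4 groups, with edgeR 4.0.16 in R 4.3.3 (TMM, quasi-likelihood F test over 8 nest coefficients, age in days as covariate, Benjamini-Hochberg threshold 0.05). The study had tested groups with DESeq2 and made no test of nest. Each nest was then compared with the mean of the other 8. Log2 CPM used a prior count of 2. The ovarian index of each wasp, taken from the study's data, was standardized and added to nest and age. Alternatives were DESeq2 1.42.0, other filters, scalings and covariates, and leaving out each wasp or nest. The correlations of queens with nests used all 5040 pairings. The fit was tested on simulated data.

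Groups followed the nest number in the labels. A day-3 wasp labelled with nest 28, which the study lists under nest 38, was left out of the day-3 test. Named genes were, beside candidates and members of 24 gene lists (5 of them of markers), those of smallest nest p, those all-or-none between nests, those of largest spread within nests, and for each nest those of smallest p in its contrast. The genes of largest spread were taken only from those that did not pass the nest test before adjustment. A few on and off genes were added after their values were seen. The members and lists were chosen with earlier results of these data known. No 2 of the 33 libraries correlated above 0.978. Counting error was not the main limit at this depth, but a gene at 0 counts could have a level of up to 3 counts.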

Additional observations from a re-analysis of the deposited data

Results flagged for a closer look

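In the 5 nests of 4 or 5 wasps, the library total and the level of each of 29 genes called between nests were examined for a wasp that stood apart from its nestmates by Dixon's criterion. Of the 150 sets of values so made, 5 of them library totals, 17 held such a wasp, all in genes, where chance gives about 5% of sets. In LOC107073746, the fatty acyl-CoA reductase gene that was on in nests 3, 4 and 14, wasp 2 of nest 45 stood at 7.87 CPM while its 3 nestmates were at 0. In LOC107072968, which shared the state of that gene in all libraries that could be classed, a wasp of nest 45 stood at 2.46 CPM against 0.236 CPM or less. The gland gene Hbg3 reached 1770 CPM in 1 wasp of nest 65, whose nestmates had 8.97 CPM or less.

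In nest 45, a wasp was low in RpL21 at 149 CPM (nearest nestmate 188), another stood out in Rich at 154 CPM (nearest 107), and LOC107073589 and LOC107073706 were flagged at 3.32 and 0.433 CPM (nearest 2.77 and 0). In nest 42, LOC107069410 reached 62 CPM in 1 wasp (nearest 45.8), Rich fell to 64.7 CPM (nearest 76) and LOC107063754 stood at 0.565 CPM (nearest 0.256). Sptz was at 448 CPM in 1 wasp of nest 33 (nearest 255) and LOC107071847 at 69.7 CPM in 1 wasp of nest 65 (nearest 56.2). The remaining values, in LOC107068763 (0.216 CPM in nest 33 and 0.291 CPM in nest 42), LOC107072968 (0.147 CPM in nest 65 and 0.307 CPM in nest 67) and LOC107073688 (0.159 CPM in nest 67), were each close to the level of 3 counts or under it and show no more than a few counts in 1 library.

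Outside the 9 nests and their queens, LOC107073746 had 30 counts or more in 23 libraries of other nests, so its on state was not particular to the wasps compared here.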

How the results depend on the processing

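The number of genes called between nests was 1171. It was 2645 with DESeq2's likelihood ratio test (1155 of the 1171 among them), 474 without nest 14 (459 shared) and 512 without nest 42 (509 shared), and it lay between 585 (without wasp 1 of nest 14) and 1295 when single wasps were left out. The other filters, scalings, covariates and left-out nests gave 802 to 1337. Muscle and photoreceptor markers as covariates kept 891 of the calls (76.1%) and log2 library size kept 873 (74.6%). Leaving out single wasps gave 22 to 102 calls for nest 3, 23 to 195 for nest 4, 145 to 1696 for nest 14, 7 to 168 for nest 33, 60 to 183 for nest 42, 5 to 25 for nest 45, 0 to 10 for nest 48, 3 to 37 for nest 65 and 19 to 60 for nest 67. Calls with age were 0 to 21, and 99 with DESeq2's Wald test. Calls with ovarian index were 2 to 13, and 18 without age. Calls at day 3 were 22 to 73, and 87 with the wasp labelled nest 28 placed in nest 38. The similarity of nestmates was 0.153 to 0.183 without single wasps, each with p = 1e-04, the smallest that 10000 permutations give. The difference between queens' own and other nests was 0.11 (p = 0.315) over the higher genes and 0.118 (p = 0.151) with Spearman correlation, both exact permutation tests. It was 0.136 to 0.203 without each nest in turn (exact permutation p 0.00139 to 0.0194). Leaving out single wasps for similarity and ovarian index, and nests for queens, was chosen after seeing the data. Of 81 called genes among the 120 named, 31 lost their call without nest 14 and 30 without nest 42. The causes were not tested. No count or whole-transcriptome value above changed direction, whereas Hbg3 in the contrast of nest 14 turned from log2 9.62 to -0.299 without wasp 1. With 3 to 5 wasps a nest, levels under 3 counts carry no comparison. No paired analysis was possible because each wasp belongs to 1 nest and replicate numbers only name samples.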
